A study of Mus musculus with 2 samples.

Results

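The Myc and Max network is described here by 10 genes, Myc, Mycn, Mycl, Max, Mxi1, Mxd1, Mxd3, Mxd4, Mnt and Mga, which were taken from the deposited expression files by an exact match of the gene symbol. Of the 10 genes, 9 had a row in the control file and 10 in the Klf9-OE file, 9 were found in both, and 8 of those were above 0 in both libraries, among 23314 symbols shared by the files. Primordial germ cells (PGCs), the embryonic precursors of eggs and sperm, were sorted for strong GFP from E13.5 embryos of MCH females mated with Oct4-deltaPE-GFP males on a C57BL/6J background. They were infected at an MOI of 5 with a lentivirus carrying the coding region of Klf9, a Krüppel-like transcription factor, or with a control lentivirus, and cultured for 1 day on gelatin. Klf9 was carried by a CSII-EF vector, and which of several control vectors gave the control library is not stated. The labels place both cultures in a medium with bFGF, while the study's account of the RNA-seq describes culture without it. The study's medium for PGC culture contained leukemia inhibitory factor (LIF). Genital ridges of both male and female embryos were dissected, and the share of each sex behind the libraries is not given in the sources used here. There was 1 library per condition. No spread between cultures could therefore be measured, and no test of the conditions was possible.

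MYC, MYCN and MYCL bind the E-box CACGTG only as dimers with MAX, and such dimers activate genes of growth and ribosome production. MAX also pairs with the MXD proteins, with MXI1 and with MNT, which recruit SIN3 and histone deacetylases to the same E-boxes, and with MGA, through which MAX belongs to the Polycomb complex PRC1.6. In embryonic stem cells the network supports self-renewal, and PRC1.6 keeps germ line and meiotic genes silent. The network is therefore of interest in PGCs, which express Mycn and can be returned to pluripotency in culture.

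Expression is given in RPKM, reads scaled to transcript length and to the mapped reads of the library, so that levels of different genes can be set side by side. Each RPKM is followed by the Cufflinks 95% interval, which covers only the error of estimating that value within 1 library. The log2 ratio is log2(RPKM + 0.1) in Klf9-OE PGCs minus the same in control PGCs, and its 95% interval was combined from both Cufflinks intervals. Klf9 itself was at 2.27 (1.97 to 2.57) in control and 80.8 (77.0 to 84.5) in Klf9-OE PGCs, which gave a log2 ratio of 5.09. All 10 germ cell markers were detected in both libraries, and their summed RPKM was 1699 in control and 1409 in Klf9-OE PGCs. Of these, 8 were lower in Klf9-OE PGCs with intervals that did not overlap, among them Pou5f1 (387 and 277) and Dppa3 (294 and 179), and Dazl was higher. Of the 10 markers 9 reached an RPKM of 20 in either library, and 25.2% of all genes at that level were lower and 14.8% higher. Of 8 markers of gonadal somatic cells, 4 were higher and 1 was lower, against 11.2% and 14.4% of all genes above 0 in either library, with a summed RPKM of 22.8 in control and 30.9 in Klf9-OE PGCs. Star, listed at 0 in control and at 2.39 in Klf9-OE PGCs, was among the higher ones, and Sox9, at 2.04 and 1.09, was lower. A listed 0 beside a value well above 0 in the other library also occurs for genes outside these lists. What lies behind such zeros was not tested. The summed RPKM was 3.46 and 6.31 for 5 endothelial markers, 13.6 and 17.7 for 4 fibroblast markers, and 4.14 and 5.33 for 4 blood and macrophage markers, and 1, 2 and 1 of them, respectively, were higher. The endothelial difference lay in Cdh5, at 2.0 in control and 5.09 in Klf9-OE PGCs, and the other 4 markers summed to 1.47 and 1.23. Of those 4, Tek was lower, and Emcn was listed at 0 in Klf9-OE PGCs. The blood and macrophage difference lay in Csf1r, at 0.307 and 1.18, and in Cd68, at 3.69 and 4.11 with overlapping intervals. The other 2 blood and macrophage markers were near 0 and lower in Klf9-OE PGCs, with overlapping intervals. In such bulk libraries fewer cells of a type and less RNA per cell cannot be told apart, and the part of these markers in the results for the network genes was not tested. The part of the sex of the embryos in the marker values was not tested either.

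The levels of the network genes differed more between genes than between libraries. In control PGCs the order ran from Max through Mycn, Mxd4, Mxi1, Mnt, Mycl and Myc to Mxd1. Only the neighbours Mxi1 and Mnt had overlapping intervals there. In Klf9-OE PGCs Mnt stood above Mxi1, and the overlapping neighbours were Max with Mycn and Mycl with Myc. Among all genes above 0, Max lay at percentile 81.7 in control and 83.0 in Klf9-OE PGCs, Mycn at 78.5 and 80.9, and Mxd1 at 43.6 and 42.5.

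**Figure D1:**
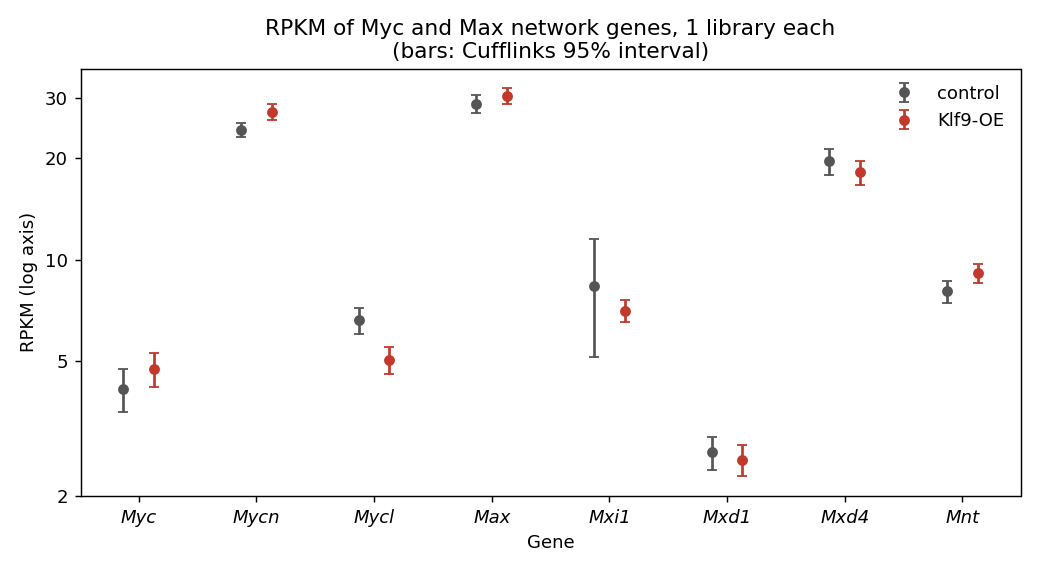
RPKM on a log axis of the 8 network genes above 0 in both libraries, in control (grey) and Klf9-OE (red) PGCs, with the Cufflinks 95% interval as bars and 1 library per condition. The intervals of Mycn and Mycl do not overlap between the libraries, and Mycl is the lower in Klf9-OE PGCs.

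Mycn (N-myc) was the main Myc gene of these PGCs, at an RPKM of 24.1 (22.9 to 25.4) in control and 27.3 (25.8 to 28.8) in Klf9-OE PGCs. The intervals did not overlap and Klf9-OE was the higher, by a log2 ratio of 0.18 (0.07 to 0.28). The Mycn intervals correspond to fewer reads in Klf9-OE PGCs than in control although the RPKM was higher. Mycn thus fails the check of reads given below, as do Myc and Mxi1, and what lies behind this was not tested. Mycl (L-myc), the Myc gene with the weakest transforming activity, was at 6.61 (6.02 to 7.20) in control and 5.05 (4.58 to 5.53) in Klf9-OE PGCs. Its intervals did not overlap either, with a log2 ratio of -0.38 (-0.56 to -0.20). A change of -23.5% from the control RPKM was the largest among the 8 genes. Myc, one of the factors used to make induced pluripotent stem cells, was at 4.14 (3.54 to 4.74) in control and 4.75 (4.20 to 5.30) in Klf9-OE PGCs. These intervals overlapped, and the log2 ratio of 0.19 had an interval of -0.07 to 0.45.

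Both Myc genes whose intervals did not overlap have a promoter window in the RefSeq tables for GRCm38.p6 (the assembly also called mm10), and the 250 bases before each start site are shown because KLF9 belongs to the factors that bind GC-rich boxes. The sequences run 5′ to 3′ on the strand of the gene, and capitals mark GGGCGG and CACCC on either strand. Mycn is shown at chr12:12941837-12942086 on the minus strand, and Mycl at chr4:122995681-122995930 on the plus strand. The Mycl stretch lies within the bounds of the RefSeq gene, 122995588 to 123002490, and so not upstream of the whole gene. The Mycn stretch lies within the Klf9-OE locus of Mycn, which runs to 12943467.
Mycn: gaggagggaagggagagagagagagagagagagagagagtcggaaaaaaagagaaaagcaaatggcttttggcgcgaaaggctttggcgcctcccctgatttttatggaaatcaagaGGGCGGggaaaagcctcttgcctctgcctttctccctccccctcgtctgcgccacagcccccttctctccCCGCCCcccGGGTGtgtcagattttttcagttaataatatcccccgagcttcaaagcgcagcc
Mycl: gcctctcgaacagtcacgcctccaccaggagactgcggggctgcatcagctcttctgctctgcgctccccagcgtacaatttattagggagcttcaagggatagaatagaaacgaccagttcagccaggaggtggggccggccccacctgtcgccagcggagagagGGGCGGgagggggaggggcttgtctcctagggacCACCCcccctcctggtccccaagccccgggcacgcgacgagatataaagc
The GGGCGG box occurred 2 times in the Mycn stretch and 1 time in that of Mycl, CACCC occurred 1 time in each, and no CACGTG was found in either. Windows from 250 bases before to 50 after a start were found for 9 of the 10 genes, 11 windows in all. Mxi1 has more than 1 of these windows, and some of its windows overlap. The windows of all genes were not limited to genes expressed here. GGGCGG was in 10 of the 11 windows and in 35.7% of all 32851 windows, CACCC in 8 and in 57.5%, and CACGTG in 3, those of Max, Mnt and Mxd4, and in 7.15%. In both stretches no match overlapped another. Both the gene that was higher and the gene that was lower held the GC box, as did Mxd1 with 6 copies and Mxd3 with 8. A match describes these letters only and does not show binding.

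The deposited loci bear on the value of Mycn. In control PGCs its locus ran from 12936093 to 12941836 of chromosome 12, the bounds of the RefSeq gene, whereas in Klf9-OE PGCs Cufflinks extended it with assembled transcripts to 12943467. The control file lists a separate locus without a name upstream of it, from 12942249 to 12942868, at an RPKM of 1.48 (0.764 to 2.20). Transcripts upstream of the annotated start were thus counted within Mycn in one library and apart from it in the other. The part of this in the difference was not tested. Mycl had the same locus in both files, from 122995931 to 123002480 of chromosome 4, with no assembled transcript in either. The Mycl intervals correspond to 502 reads in control and 451 in Klf9-OE PGCs.

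As a sum, the Myc genes reached an RPKM of 34.9 (33.4 to 36.4) in control and 37.1 (35.4 to 38.7) in Klf9-OE PGCs, with overlapping intervals. Mycn made up 69.2% (67.2 to 71.2) of this sum in control and 73.6% (71.8 to 75.4) in Klf9-OE PGCs. The share of Mycl was 18.9% (17.4 to 20.5) and 13.6% (12.4 to 14.9), and that of Myc 11.9% (10.3 to 13.4) and 12.8% (11.4 to 14.2). The shares of Mycn and Mycl lay apart between the libraries, and that of Myc did not.

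Max, the common partner, had the highest RPKM of the 8 genes in both libraries, at 28.9 (27.1 to 30.6) in control and 30.4 (28.7 to 32.1) in Klf9-OE PGCs. The intervals overlapped, and the log2 ratio was 0.08 (-0.04 to 0.19). The intervals correspond to 1052 and 1295 reads, the largest numbers among the 5 genes for which reads could be read from the interval in both libraries. The locus, on chromosome 12 from 76937269 to 76962248, carried assembled transcripts in both files. Relative to Max, the summed RPKM of the Myc genes was 1.21 (1.12 to 1.30) in control and 1.22 (1.13 to 1.31) in Klf9-OE PGCs.

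Of the repressing partners, Mxd4 was the most abundant, at 19.5 (17.8 to 21.2) in control and 18.1 (16.6 to 19.6) in Klf9-OE PGCs, with a log2 ratio of -0.11 (-0.28 to 0.06). Mxi1 was at 8.34 (5.16 to 11.5) in control and 7.07 (6.55 to 7.58) in Klf9-OE PGCs. The control interval of Mxi1 was wide, in a locus of 3 start sites with assembled transcripts in the control file only, and the log2 ratio of -0.24 had an interval of -0.79 to 0.32. Mxd1, a gene linked to exit from the cell cycle, was at 2.70 (2.40 to 3.0) and 2.57 (2.29 to 2.84). Intervals of all 3 genes overlapped between the libraries, and their ratios all lay on the lower side. Mxd3, known from dividing cells in S phase, was listed at 0 in both files. Its locus on chromosome 13, from 55325168 to 55329730, overlaps that of Prelid1 at the 3′ end.

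Mnt, the widely expressed repressing partner, was at 8.05 (7.45 to 8.64) in control and 9.11 (8.53 to 9.68) in Klf9-OE PGCs. The intervals overlapped by a narrow margin, and the log2 ratio of 0.18 had an interval of 0.04 to 0.31. When the libraries were rescaled to the same sum of RPKM, the intervals of Mnt no longer overlapped, with control at 7.45 to 8.64 and Klf9-OE at 8.91 to 10.1. The intervals as deposited correspond to 729 reads in control and 1007 in Klf9-OE PGCs.

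Mga could not be compared between the libraries. The control file holds it in a joint locus with its neighbour Mapkbp1, on chromosome 2 from 119872715 to 120027403, at an RPKM of 34.6 (33.3 to 36.0). The Klf9-OE file splits the locus and gives Mga, from 119872863 to 119969651, at 36.1 with bounds of 0 and 11309, and Mapkbp1 at 3.64 (3.34 to 3.94). The sum of both rows in Klf9-OE PGCs was 39.7, and the bounds of Mga are too wide to set it against the control value.

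The repressing partners Mxi1, Mxd1, Mxd4 and Mnt summed to 38.6 (34.9 to 42.3) in control and 36.8 (35.1 to 38.5) in Klf9-OE PGCs. The Myc genes stood at 0.904 (0.814 to 1.00) of this sum in control and 1.01 (0.944 to 1.07) in Klf9-OE PGCs, and these intervals overlapped.

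**Figure D2:**
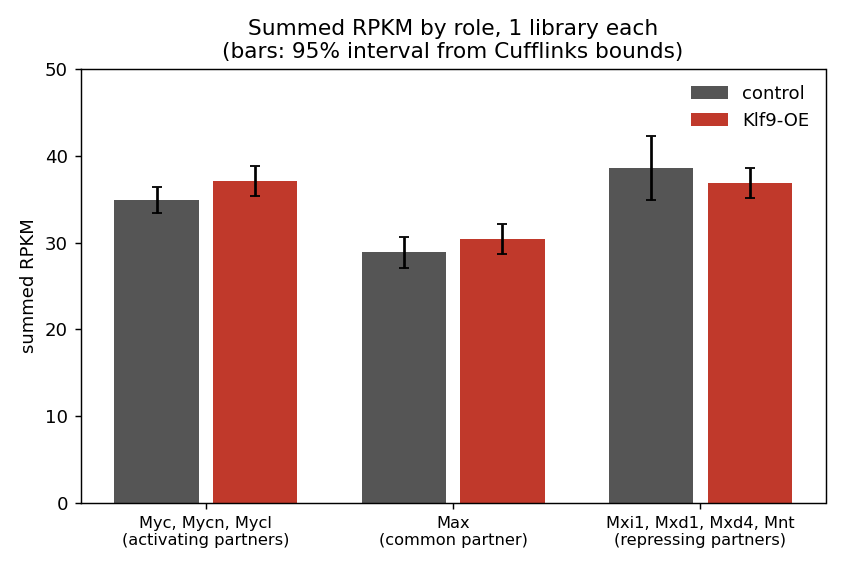
Summed RPKM of the Myc genes, Max and 4 repressing partners in control (grey) and Klf9-OE (red) PGCs, with 95% intervals combined from the Cufflinks bounds and 1 library per condition. The sums are 34.9 and 37.1 for the Myc genes, 28.9 and 30.4 for Max, and 38.6 and 36.8 for the repressing partners, and the intervals of each pair overlap.

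Intervals did not overlap for 2 of the 8 network genes, 1 higher and 1 lower in Klf9-OE PGCs. Among all genes above 0 in either library this held for 25.6%, with 11.2% higher and 14.4% lower. Among genes reaching an RPKM of 1 in either library it held for 35.0%, with 14.8% higher and 20.2% lower. The count of the network genes is near or below this background. By the difference past the combined half-widths of both intervals, 3 of the 8 genes were called, Mnt being added on the higher side, against 36.7% of all genes, 16.5% higher and 20.2% lower. After rescaling to the same sum, 58.6% of the calls over all genes were higher, against 43.7% as deposited. None of the 8 genes was at least 2-fold apart, against 8.52% of all genes above 0 (4.52% higher and 4.0% lower) and 7.19% of those reaching an RPKM of 1 (3.68% and 3.51%). The log2 ratios of the 8 genes ran from -0.38 to 0.19 with a median of 0.00, and the median over all genes was -0.02.

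The intervals behaved differently in the libraries at low counts. Among genes whose interval corresponds to 1 to 9 reads, the number was even for 87.8% in the Klf9-OE library and 36.2% in control. With the Klf9-OE intervals widened by the square root of 2, which is the width at 0.5 of the reads, Mycn ran from 25.1 to 29.4 and overlapped the control interval. Mycl ran from 4.38 to 5.73 and still lay below it. By this rule 1 of the 8 genes was left, against 20.4% of all genes, 8.48% higher and 12.0% lower.

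**Figure D3:**
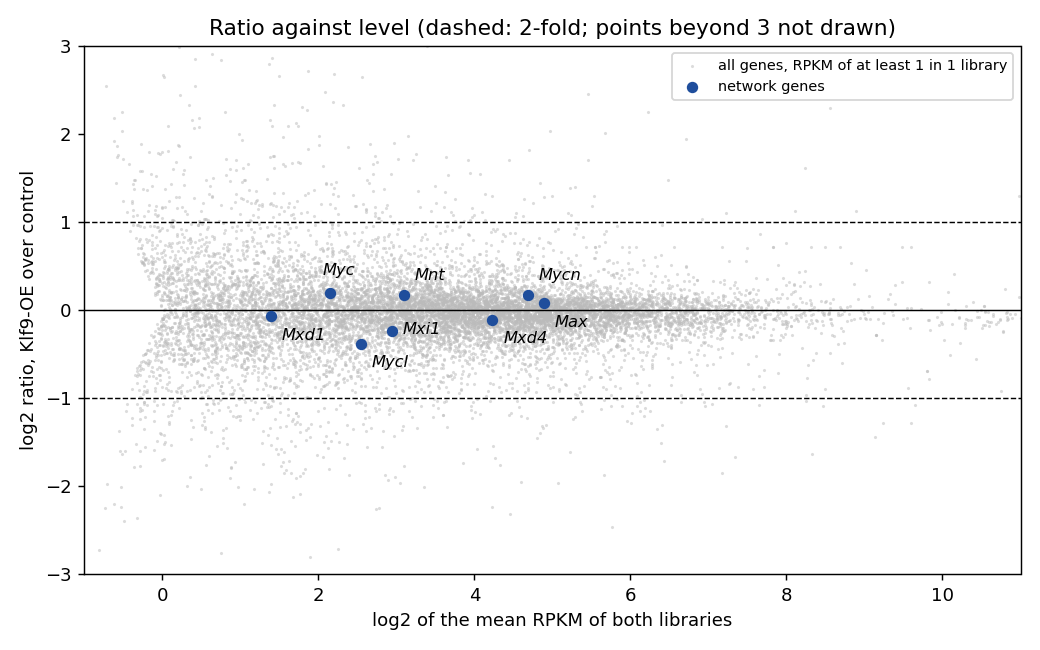
Log2 ratio of Klf9-OE over control against the log2 of the mean RPKM, for 12560 genes reaching an RPKM of 1 in either library (grey) and the 8 network genes (blue), with dashed lines at a 2-fold difference and points beyond 3 on the ratio axis not drawn. The network genes lie inside the 2-fold lines, Mycl at -0.38 being the farthest from 0.

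Genes that work with the network were described from lists of their known roles. The Mlx branch consists of factors that dimerise with MLX and respond to glucose. Mlx was at 9.59 (8.56 to 10.6) in control and 12.4 (11.3 to 13.4) in Klf9-OE PGCs, with intervals that did not overlap. Mlxip was at 19.8 in both, and Mlxipl at 1.32 (1.02 to 1.62) and 1.64 (1.39 to 1.89), with overlapping intervals.

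Of 5 genes of the SIN3 and histone deacetylase corepressors, through which the MXD proteins repress, 2 were lower and 1 was higher with intervals that did not overlap. At an RPKM of 20, which 4 of the 5 reached, 25.2% of all genes were lower and 14.8% higher. The scaffold Sin3a was at 76.5 (73.0 to 80.0) in control and 67.2 (64.6 to 69.7) in Klf9-OE PGCs, and the deacetylase Hdac2 at 246 (237 to 255) and 195 (192 to 199). The corepressor Ncor1 was at 16.2 (15.5 to 17.0) and 19.3 (18.5 to 20.1). The median log2 ratio of the list was -0.07.

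Among 11 genes whose products join MGA and MAX in PRC1.6, 10 had overlapping intervals and 1 was lower, while intervals did not overlap for 25.6% of all genes and for 40.0% of those reaching an RPKM of 20, as 8 of the 11 did. The subunits Pcgf6 (31.7 and 34.0), L3mbtl2 (32.8 and 33.4) and E2f6 (26.7 and 24.8) were among them, as was the most abundant member, Cbx3 (197 and 188). Ring1, a ubiquitin ligase subunit shared by Polycomb complexes, was at 7.77 (6.06 to 9.49) in control and 3.71 (3.18 to 4.23) in Klf9-OE PGCs. Its log2 ratio of -1.05 was the only one past 2-fold among the genes of the network and its working partners. The Ring1 intervals correspond to more reads in Klf9-OE PGCs than in control although the RPKM was lower. Ring1 thus fails the check of reads given below, and what lies behind this was not tested. Apart from Ring1, that check was not applied to the calls of the lists. Among those calls, the intervals of Hdac2, Ruvbl1, Mael and Taf7l differ in width between the libraries by more than their RPKM does. The other ligase subunit, Rnf2, was at 34.1 and 34.5.

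Germ line genes held down by PRC1.6 in stem cells were, as germ cell genes, abundant here. Of 12 found in both files, 2 were higher (16.7%), 3 lower (25%) and 7 had overlapping intervals, with a median log2 ratio of -0.02. All 12 reached an RPKM of 20, and the shares lie near the 14.8% higher and 25.2% lower among all genes at that level. Stra8, which is switched on by retinoic acid at the entry into meiosis, was at 120 (114 to 125) in control and 79.4 (75.7 to 83.0) in Klf9-OE PGCs, which gave a log2 ratio of -0.59. The part of the sex of the embryos in the Stra8 values was not tested. Mael and Tdrd1, of the piRNA pathway, were at 244 and 210 and at 65.5 and 58.9, respectively, and both were lower. Taf7l, at 286 (281 to 291) and 345 (332 to 358), and Dazl, at 351 and 378, were higher. Sycp3, a protein of the synaptonemal complex and the most abundant of the list, was at 541 and 557 with overlapping intervals.

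Of 7 cofactors of MYC found in both files, 2 were lower and 5 had overlapping intervals, against 25.2% lower among all genes reaching an RPKM of 20, as 6 of the 7 did. Of the 5, Trrap and Bptf had control intervals that start at 0, too wide for a call at these levels. Zbtb17, which encodes MIZ1, the factor through which MYC represses genes, was at 24.1 (22.6 to 25.5) in control and 17.1 (16.1 to 18.2) in Klf9-OE PGCs. Ruvbl1, an ATPase of chromatin complexes, was at 159 (151 to 167) and 146 (142 to 149). The Ruvbl1 intervals lay apart by a narrow margin, and that of Klf9-OE PGCs was the narrower. Of 9 genes that act on the stability of MYC proteins, 3 were lower (33.3%) and 1 was higher (11.1%), against 20.2% and 14.8% of all genes reaching an RPKM of 1 and 25.2% and 14.8% of those reaching 20. The lower ones act in both directions. Fbxw7, the ubiquitin ligase subunit that marks MYC for degradation, was at 43.3 (41.5 to 45.1) and 37.6 (36.2 to 38.9). Usp28, which removes that mark, was at 85.4 (81.5 to 89.4) and 64.4 (61.6 to 67.1), and the kinase Pim1, which stabilises MYC and is a target of LIF signalling, at 107 (103 to 111) and 85.4 (82.0 to 88.8). Skp2, a subunit of another ligase for MYC, was at 7.63 (6.94 to 8.33) and 9.82 (9.07 to 10.6). Ep400 of the first list and Huwe1 of the second lay under joint names and were not compared.

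Of the genes known to be activated by MYC, 36 were found in both files, and 15 (41.7%) were higher, 2 (5.56%) lower and 19 had overlapping intervals. The control interval of Rrp9, among the 19, starts at 0 and is too wide for a call at this level. A ratio above 0 was found for 29 (80.6%), against 41.6% of all genes reaching an RPKM of 20, and the median log2 ratio was 0.11, against -0.04. The list was chosen with earlier results of these data known, so this contrast is not independent of them. Of these genes 32 reached an RPKM of 20 in either library, and among all genes at that level 40.0% had intervals that did not overlap, 14.8% higher and 25.2% lower. None was 2-fold apart. With the widened Klf9-OE intervals, 7 were higher and 2 lower, against 33.7% of all genes at that level, 12.1% higher and 21.6% lower. Ccnd2, a cyclin of the G1 phase, had the largest ratio among those called, 0.71 on the log2 scale, at 5.66 (5.20 to 6.11) in control and 9.32 (8.79 to 9.85) in Klf9-OE PGCs. The spermidine synthase gene Srm was at 38.9 (36.6 to 41.1) and 48.1 (45.1 to 51.2), the nucleoside diphosphate kinase gene Nme1 at 145 (137 to 152) and 180 (171 to 189), and Nop56, of the machinery that modifies ribosomal RNA, at 81.5 (77.2 to 85.8) and 99.2 (94.3 to 104). Odc1, the rate-limiting enzyme of polyamine synthesis, had overlapping intervals at 135 (130 to 140) and 138 (133 to 143), as did Npm1, a nucleolar protein, at 1245 and 1281. The lower ones were Fbl, a nucleolar methyltransferase, at 399 (391 to 407) and 360 (343 to 376), and Hk2, a hexokinase of glycolysis, at 53.5 (51.4 to 55.5) and 47.4 (45.2 to 49.6). The Fbl intervals differed in width between the libraries. The check of reads used for the network genes was not applied to the calls of this list. Ncl and Nolc1 lay under joint names and were not compared. The germ cell and somatic markers given above differed between the libraries as well, and their part in these values was not tested.

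Genes known to be repressed by MYC went both ways. Of 7, 2 were higher, 1 was lower and 4 had overlapping intervals, with a median log2 ratio of -0.01. Among all genes reaching an RPKM of 1, 14.8% were higher and 20.2% lower. The cell cycle inhibitors Cdkn1a, also a target of p53, at 12.4 (11.3 to 13.6) in control and 14.9 (13.7 to 16.1) in Klf9-OE PGCs, and Cdkn1c, an imprinted gene, at 16.1 (14.7 to 17.6) and 21.2 (19.6 to 22.8), were higher. Ndrg1, a stress-responsive gene, was lower, at 2.79 (2.39 to 3.18) and 1.88 (1.59 to 2.18).

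**Figure D4:**
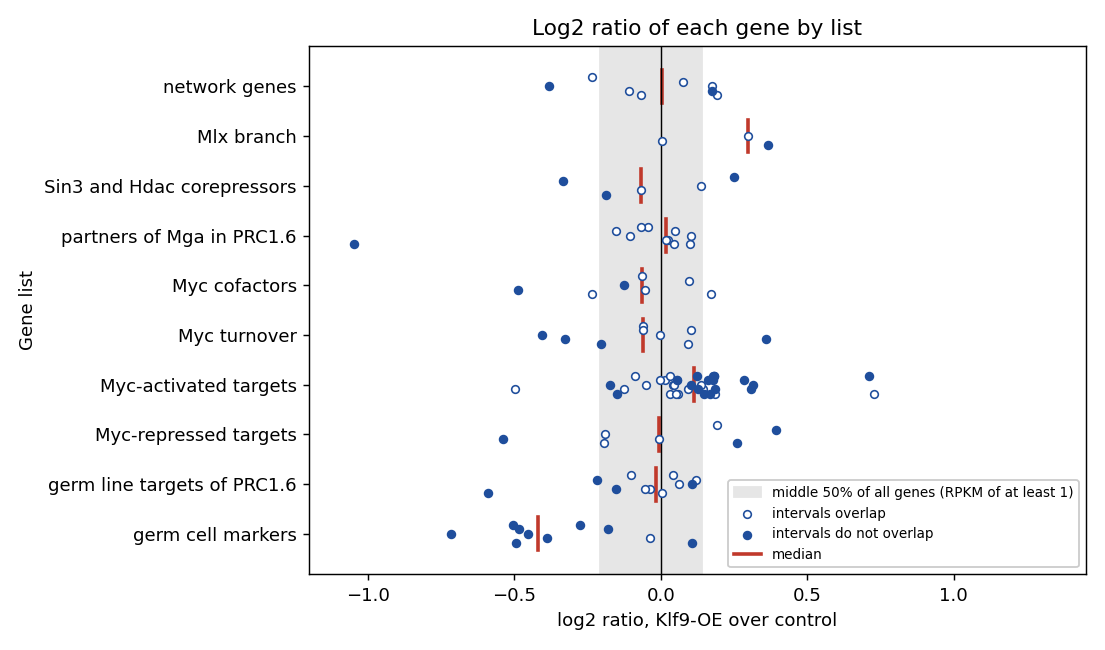
Log2 ratio of Klf9-OE over control for each gene of 10 lists, with filled points where the intervals of the libraries do not overlap, open points where they do, a red line at the median of each list and a grey band for the middle 50% of genes reaching an RPKM of 1. The medians are 0.00 for the network genes, 0.11 for the genes activated by MYC and -0.42 for the germ cell markers.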

How the data were processed

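RNA-seq of 1 control and 1 Klf9-OE library of PGCs was analysed. The deposited values are FPKM per locus (RPKM, as the reads were single-end and 51 nt long), estimated by the authors with Cufflinks, with the bounds of a 95% interval. Alignment was to the mm10 assembly, with TopHat2, which runs Bowtie. Tool versions are not given in the sources used here. The library kit does not mark strand.

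RPKM of rows with the same symbol was summed, and each network gene had a single row in each file, apart from Mga, which had none of its own in the control file. The rows marked as failed, 1 in control and 5 in Klf9-OE, were left out, and intervals were used for symbols with 1 row per file. Genes were called where the intervals did not overlap or where RPKM + 0.1 differed at least 2-fold. Intervals of sums, shares and ratios were combined from the half-widths as independent errors. The files hold no read totals. Reads behind a value were taken as the square of 2 times the RPKM over the upper half-width, and printed for genes where the ratio of reads was within 10% of the RPKM ratio times 1.22, the depth of Klf9-OE relative to control (median of 2851 genes, quartiles 1.20 and 1.23). Even numbers were counted where reads lay within 0.06 of a whole number. Their share differed between the libraries. Read numbers and the depth ratio are therefore those that the intervals imply, and may not count independent reads alike in both libraries. Deposited locus starts count from 0, and 1 was added. Motifs were searched on both strands.

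Network genes and lists were chosen with earlier results of these data known. All 10 network genes are named, and of each list a fixed set of genes, the most abundant gene and up to 4 with the largest ratios among those called. Rnf2, Mapkbp1, Prelid1, Emcn, Fbl, Hk2, Trrap, Bptf and Rrp9 were named after their values were seen. Alternatives were pseudocounts of 0.01 and 1, rescaling to the same upper quartile or sum, a floor of RPKM 1 or above 0 in both libraries, widened Klf9-OE intervals, combined half-widths, a 1.5-fold limit and the highest row per symbol. Backgrounds at an RPKM of at least 20, for the widened intervals and for the combined half-widths, the joint locus of Mga and the endothelial sum without Cdh5 were added after seeing the data. Python 3.11.15 with numpy 2.4.6, pandas 2.3.3 and matplotlib 3.10.9 was used.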

Additional observations from a re-analysis of the deposited data

Results flagged for a closer look

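Loci without a gene name were not part of the comparisons. Within 3000 nt of the network genes, the Klf9-OE file lists 8 such loci with no overlapping locus in the control file, 4 near Mnt and 4 near Mga, of 79 to 328 nt. Near Mnt they had an RPKM of 11.2 upstream of the gene and 5.33, 4.33 and 2.84 within it. Near Mga they had an RPKM of 3.23 upstream and 7.56, 546 and 153 within it. Their intervals correspond to 9.59 to 14.0 reads each, and in total the Klf9-OE file holds 15127 loci without a name and the control file 6482. The values of 546 and 153 belong to the shortest of these loci, of 79 and 102 nt, with 9.59 reads each. The locus upstream of Mnt, of 197 nt, had as many reads at an RPKM of 11.2. The RPKM of such short loci should therefore not be set beside that of genes.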

How the results depend on the processing

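With 1 library per condition, leaving out a library was not possible. No paired analysis was possible because each condition had 1 library, which leaves no replicates to pair. Of the 10 alternatives, only the rescalings could change the sign of a log2 ratio, and none of the 8 network genes changed sign. Mycl kept intervals that did not overlap under both rescalings and with the widened Klf9-OE intervals. The other alternatives could not remove its call. The number of network genes with intervals that did not overlap was 1 instead of 2 with the widened Klf9-OE intervals, where 0 instead of 1 were higher. Of the network genes 2 instead of 1 were higher when rescaled to the same upper quartile, when rescaled to the same sum and with the combined half-widths, Mnt being added to Mycn each time. No network gene passed 1.5-fold. Over all genes, 847 were at least 2-fold higher and 750 lower. These were 1688 and 1637 with a pseudocount of 0.01, 308 and 288 with a pseudocount of 1, 462 and 441 with a floor of RPKM 1, 518 and 448 with an RPKM above 0 in both libraries, and 1944 and 1842 at 1.5-fold. The median log2 ratio of the Mlx branch was 0.19 with a pseudocount of 1 and 0.30 as reported. Of the genes activated by MYC, 21 were higher and 0 lower when rescaled to the same sum. The medians of the genes repressed by MYC and of the germ line targets of PRC1.6 were above 0 under both rescalings, at 0.06 and 0.05 with the same sum. Depth limits the precision of the lower network genes, and the Mxd1 intervals correspond to 323 reads in control and 350 in Klf9-OE PGCs. Given the even numbers at low counts, read numbers of the libraries may not count alike.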
